A study of Mus musculus with 89 samples.

Results

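The genes followed here are 10 that are known for expression in cortical neurons (Nrgn, Itpka, Camkv, Cplx3, Cux2, Rasgrf2, Tcerg1l, Arhgef28, Egr3 and Nr4a2), measured in RNA of mouse nucleus accumbens, a striatal region of reward that lies beneath the cortex. These 10 genes were taken from the 9542 genes with a listed exon skipping event, and all 10 were among the 8201 that averaged at least 20 reads per library. They were chosen by name after their read coverage had been seen to differ between the sets of libraries, so their differences in that table are a description and carry no test. For each gene, coverage is the sum of the reads that include and the reads that skip the exon of its deepest event, and inclusion is the share of transcripts that keep an exon, corrected for length.

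The study delivered the lysine methyltransferase Set2, which places the histone mark H3K36me3, to the nucleus accumbens and measured splicing. In one experiment, herpes simplex virus (HSV) vectors carried Set2 (HSV-Set2), a Set2 with the substitution R195G (HSV-R195G) or green fluorescent protein (HSV-GFP), with 3 RNA libraries per group. In the other, dCas9-SET2, a Cas9 without cutting activity fused to SET2, was delivered with a guide against Srsf11, which encodes a splicing factor (sgRNA-SRSF11), or a non-targeting guide (sgRNA-NT), with 16 runs per guide under 4 sample names of 4 runs each. All of these mice were wild type C57BL/6 animals of 8 weeks, and the accumbens was taken by micro-punch, so every library is bulk tissue, of which a vector reaches part of the cells. The HSV table holds 5 libraries in 2 sets, one of 3 and one of 2, and the dCas9-SET2 table holds 2 run sets of 16 columns. In each run set the columns at positions 4 and 8 hold identical values for every event, so they were counted as 1 run, which leaves 15 distinct runs per set. The columns carry no sample names, so no virus or guide is given to a set. The labels do not say that the HSV libraries came from separate animals, so the spread between them may be technical. The second library of the 2-library set stands apart in Ttr, a choroid plexus gene, at 9888 CPM, against 405 CPM or less in every other library, and values without it are given where they bear on a result.

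Cortical excitatory neurons and the medium spiny neurons of the striatum share much of their calcium signalling machinery. Nrgn (neurogranin) holds calmodulin at the postsynaptic side, Itpka phosphorylates inositol trisphosphate and bundles actin in spines, and Camkv is a kinase-like protein of vesicles that lacks kinase activity. Cux2 and Rasgrf2 are used as markers of upper cortical layers, Cplx3 and Nr4a2 as markers of the subplate neurons at the base of the cortex, and Egr3 is an immediate early gene that neuronal activity induces in cortex and striatum alike.

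The 10 genes did not move together. Coverage of 4 (Cux2, Rasgrf2, Tcerg1l and Arhgef28) was higher in the 3-library set than in the 2-library set, and coverage of the other 6 (Nrgn, Itpka, Camkv, Egr3, Cplx3 and Nr4a2) was lower. Their median log2 difference, 3-library minus 2-library set, was −0.98, against 0.00 over all 8201 genes. In a limma fit over all 8201 genes with Benjamini-Hochberg adjustment, 9 of the 10 had an adjusted p below 0.05, against 22.7% of all genes: 3 higher, against 13.2%, and 6 lower, against 9.47%. The CPM of the sets were separate for 10 of 10, against 49.8% of all genes. Nothing is read from these counts, since this contrast chose the genes. Leaving out 1 library of the 3-library set at a time left 6 or 7 of the 10 genes called, against 1334 to 1443 of all 8201 genes. Nothing is read from these counts either. Called each time were 6 (Nrgn, Itpka, Camkv, Egr3, Rasgrf2 and Tcerg1l). Cux2 stayed called only without library 1 of the 2-library set, and Arhgef28 was called only then. Cplx3 lost its call without that library or without the first or the third of the 3-library set, and Nr4a2 lost its call without that library or without the first or the second of the 3-library set. Coverage is given as CPM, reads scaled to a common library total and for library composition but not for length, so levels are compared within a gene and not between genes.

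**Figure D1:**
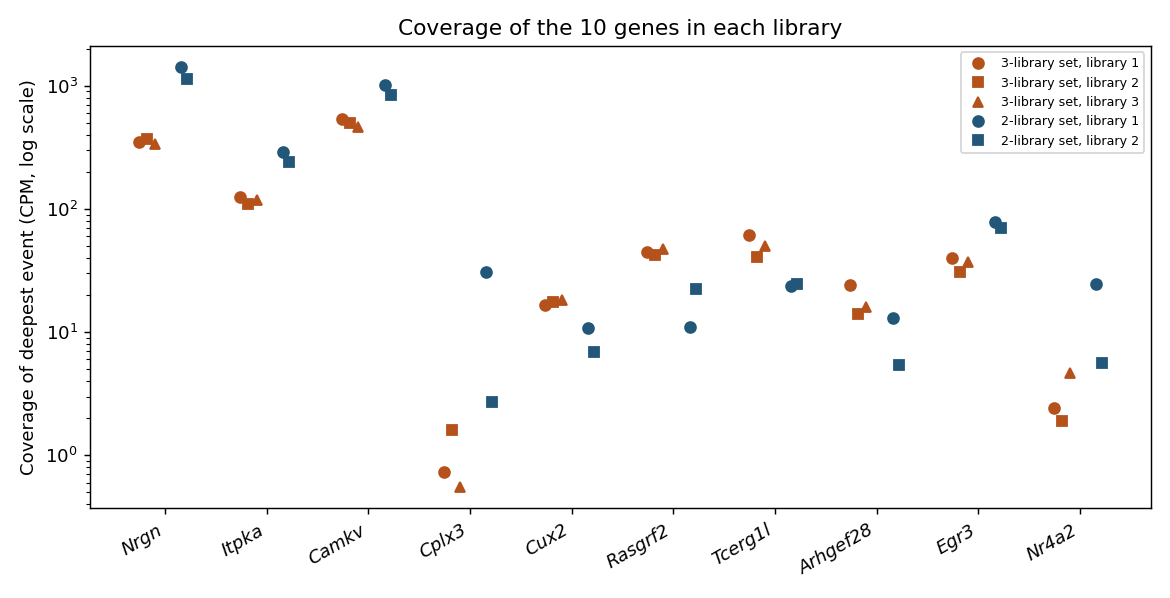
Coverage of the 10 genes in each library of the HSV table. The y axis is CPM of the deepest event on a log scale, and each point is 1 library of the 3-library set (orange) or the 2-library set (blue). In all, 6 genes lie lower and 4 higher in the 3-library set, and in no gene do the sets overlap. In Cplx3 and Nr4a2 the first library of the 2-library set stands well above the second.

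Of the postsynaptic calcium signalling genes, Nrgn had coverage of 350, 367 and 334 CPM in the 3-library set, against 1419 and 1138 CPM in the 2-library set. The 3 libraries lay close together and far below the other 2. The log2 difference was −1.86 (SE 0.10). It was measured on an 18-nucleotide exon of Nrgn (chromosome 9, 37353285 to 37353302) with 1219 to 1438 reads per library in the 3-library set, against 5765 and 4621 in the 2-library set. Itpka had 124, 110 and 118 CPM in the 3-library set, against 289 and 241 CPM in the 2-library set, a log2 difference of −1.17 (SE 0.11). Camkv had 533, 499.9 and 458 CPM in the 3-library set, against 1018 and 836 CPM in the 2-library set, a log2 difference of −0.89 (SE 0.10). In all 3 of these genes, each library of the 3-library set was below both libraries of the 2-library set, and the first library of the 2-library set was above the second.

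Egr3, a zinc-finger transcription factor, had 39.7, 31.0 and 36.7 CPM in the 3-library set, against 78.3 and 70.4 CPM in the 2-library set. The sets were apart, and both libraries of the 2-library set were alike: the first over the second was 1.11 (exact 95% interval of counting error 0.944 to 1.31). The log2 difference was −1.06 (SE 0.17). Intervals of this kind model the counting of reads only. The reads carry no molecular identifiers, so repeated copies of a molecule are not taken into account.

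Cplx3, a complexin that acts on the release machinery of synaptic vesicles, had 3, 6 and 2 reads in the 3-library set, against 125 and 11 reads in the 2-library set. Scaled, these were 0.730, 1.62 and 0.548 CPM in the 3-library set, against 30.8 and 2.71 CPM in the 2-library set. A single library, the first of the 2-library set, thus held most Cplx3 reads, at 11.4 times the CPM of its partner (exact 95% interval 6.13 to 23.3), and 3 of the 8201 genes had a larger ratio between these libraries. Nr4a2, an orphan nuclear receptor needed by midbrain dopamine neurons, had 10, 7 and 17 reads in the 3-library set, against 100 and 23 reads in the 2-library set. Scaled, Nr4a2 had 2.43, 1.88 and 4.66 CPM in the 3-library set, against 24.6 and 5.67 CPM in the 2-library set. The same library was high, at 4.35 times its partner (exact 95% interval 2.74 to 7.17), with 10 genes above that ratio.

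The log2 difference of Cplx3 was −3.22 (SE 0.95) over all libraries and −1.49 without library 1 of the 2-library set, whereas it was −4.94 if its partner was left out. For Nr4a2 the difference was −2.04 (SE 0.64) over all libraries, −0.99 without the first and −3.09 without the second. The calls of both genes changed with libraries of the 3-library set too, as given above. The size of both differences rests on 1 library, the first of the 2-library set. Without it the sign was the same, but the counting intervals overlapped: Cplx3 had 6 reads (exact Poisson 95% interval 2.20 to 13.1) in the highest library of the 3-library set, against 11 reads (5.49 to 19.7) in the remaining library of the 2-library set. The highest Nr4a2 count was 17 reads (9.90 to 27.2) in the 3-library set, against 23 reads (14.6 to 34.5) in that remaining library, so no direction is established for either gene without the first library. Of all measured genes with at least 50 reads in that library, 4 had over 4 times the CPM of its partner. These were Cplx3, Nr4a2, Ccn3 and Islr2, and Ccn3 and Islr2 are named after their values were seen. Ccn3 had 3.17, 14.8 and 6.58 CPM in the 3-library set, against 18.7 and 3.94 CPM in the 2-library set, and Islr2 had 8.52, 27.5 and 10.4 CPM in the 3-library set, against 16.99 and 3.45 CPM in the 2-library set. Unlike Cplx3 and Nr4a2, both were also high in the second library of the 3-library set.

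Rasgrf2, an exchange factor that calcium and calmodulin regulate and that activates Ras and Rac, had 44.8, 42.3 and 47.1 CPM in the 3-library set. In the 2-library set it had 11.1 and 22.4 CPM. The 3 libraries agreed within 1.12-fold, while the first library of the 2-library set was at 0.494 of the second (exact 95% interval 0.338 to 0.714), the reverse of Cplx3. The log2 difference was 1.50 (SE 0.27), 0.99 without library 1 of the 2-library set, whereas it was 2.00 if its partner was left out. Arhgef28, a guanine nucleotide exchange factor, had 24.3, 14.00 and 15.9 CPM in the 3-library set, against 13.0 and 5.42 CPM in the 2-library set. Here the lowest library of the 3-library set lay just above the highest of the 2-library set. Arhgef28 was the 1 gene not called. Its log2 difference was 1.05 (SE 0.39), and 1.68 without library 1 of the 2-library set, whereas it was 0.43 if its partner was left out.

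Cux2, a homeodomain transcription factor, had 16.6, 17.5 and 18.1 CPM in the 3-library set, against 10.8 and 6.90 CPM in the 2-library set. Its log2 difference was 1.00 (SE 0.31), and the 3 libraries were the most alike of the 10 genes, within 1.09-fold. Tcerg1l had 61.6, 40.4 and 49.9 CPM in the 3-library set, against 23.6 and 24.6 CPM in the 2-library set, with a log2 difference of 1.04 (SE 0.20). Here the pair of the 2-library set was alike, at a ratio of 0.960 (exact 95% interval 0.718 to 1.28), and the 3-library set spread 1.52-fold. Cux2 and Rasgrf2 thus lay on the opposite side from Nrgn, Itpka and Camkv, and no pattern by cortical layer is read from these genes.

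**Figure D2:**
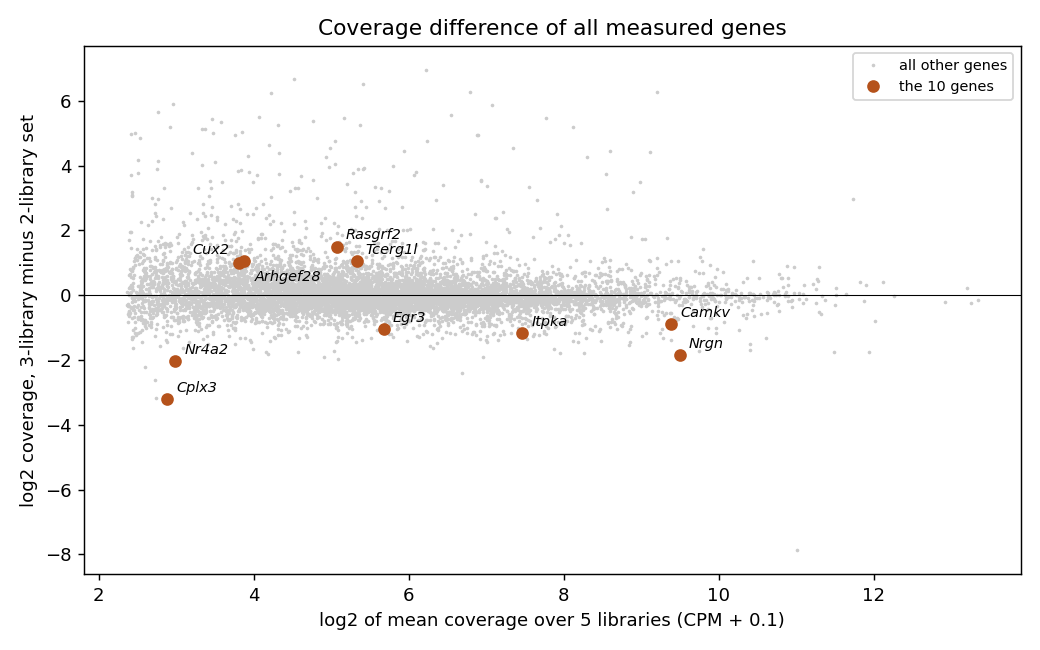
Coverage difference against mean coverage for all 8201 measured genes. The x axis is log2 of mean CPM plus 0.1, the y axis the log2 difference of the 3-library minus the 2-library set, and orange points are the 10 genes. Rasgrf2 is highest of them at 1.50 and Cplx3 lowest at −3.22, with Nrgn at −1.86 among the most deeply covered genes.

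Promoter sequences are shown for 4 genes that stand for the patterns above: Nrgn (lower in the 3-library set), Cplx3 and Nr4a2 (high in 1 library) and Rasgrf2 (higher in the 3-library set). They are RefSeq sequences of build GRCm38.p6, 250 bases before to 50 bases after the start, and 9 of the 10 genes had an entry. All 4 genes lie on the minus strand, with windows at chr9:37552696-37552995, chr9:57606232-57606531, chr2:57123954-57124253 and chr13:92131779-92132078. Capitals mark CACGTG, an E-box, and TGACG or its complement CGTCA, a CRE half-site, which is bound by CREB-family factors.
Nrgn promoter: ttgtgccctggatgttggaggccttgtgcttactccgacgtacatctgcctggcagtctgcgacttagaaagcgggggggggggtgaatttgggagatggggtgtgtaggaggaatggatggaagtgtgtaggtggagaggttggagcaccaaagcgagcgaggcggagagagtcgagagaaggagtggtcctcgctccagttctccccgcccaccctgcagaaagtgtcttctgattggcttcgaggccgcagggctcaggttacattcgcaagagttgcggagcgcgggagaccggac
Cplx3 promoter: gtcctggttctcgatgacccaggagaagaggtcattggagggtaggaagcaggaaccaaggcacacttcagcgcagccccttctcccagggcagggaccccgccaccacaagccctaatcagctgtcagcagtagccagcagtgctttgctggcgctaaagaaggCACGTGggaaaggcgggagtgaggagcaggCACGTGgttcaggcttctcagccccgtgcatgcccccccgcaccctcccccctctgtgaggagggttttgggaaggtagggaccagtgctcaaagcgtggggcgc
Nr4a2 promoter: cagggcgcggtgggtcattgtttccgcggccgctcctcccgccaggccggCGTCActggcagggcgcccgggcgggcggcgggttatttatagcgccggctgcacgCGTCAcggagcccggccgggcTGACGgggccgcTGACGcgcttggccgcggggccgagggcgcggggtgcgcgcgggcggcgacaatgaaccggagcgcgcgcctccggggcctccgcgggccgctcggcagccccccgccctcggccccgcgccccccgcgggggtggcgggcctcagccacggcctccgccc
Rasgrf2 promoter: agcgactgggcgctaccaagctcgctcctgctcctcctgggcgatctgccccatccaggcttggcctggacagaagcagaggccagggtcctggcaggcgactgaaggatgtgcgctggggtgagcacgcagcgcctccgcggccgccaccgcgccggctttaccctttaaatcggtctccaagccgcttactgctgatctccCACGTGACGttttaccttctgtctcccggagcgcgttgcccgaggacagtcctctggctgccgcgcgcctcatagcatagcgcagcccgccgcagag
The Nrgn window held neither motif. The Cplx3 window held 2 E-boxes, the Nr4a2 window 4 CRE half-sites, and the Rasgrf2 window 1 of each, which overlap. On both strands, 7.15% of 32851 promoter windows of this length held CACGTG and 20.8% held TGACG. GC content was 59.3% for Nrgn, 62.7% for Cplx3, 81.7% for Nr4a2 and 66.0% for Rasgrf2, against a median of 52.7% over all windows. These matches are a description of the letters, and binding was not measured.

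Each gene's other events gave the same direction as its deepest one, but some held few reads or were barely apart. The 58-nucleotide Nr4a2 exon had 0, 2 and 1 reads in the 3-library set, against 26 and 3 in the 2-library set. A 75-nucleotide Cux2 event had 6, 6 and 10 reads in the 3-library set, against 1 and 2. The 101-nucleotide Arhgef28 exon had at least 6.58 CPM in the 3-library set, against at most 5.66 CPM. The 10 genes had 20 events, of which 11 had higher and 9 lower coverage in the 3-library set, and in 0 of the 20 did the sets overlap. The sets were likewise apart for 45.0% of all 27900 events, and nothing is read from the count, since the same contrast chose the genes. Of the genes, 7 had more than 1 event. The events of a gene share transcripts and in part reads, so they are not replicates: the 58-nucleotide and 179-nucleotide exons of Nr4a2 share their start (chromosome 2, 56960972).

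**Figure D3:**
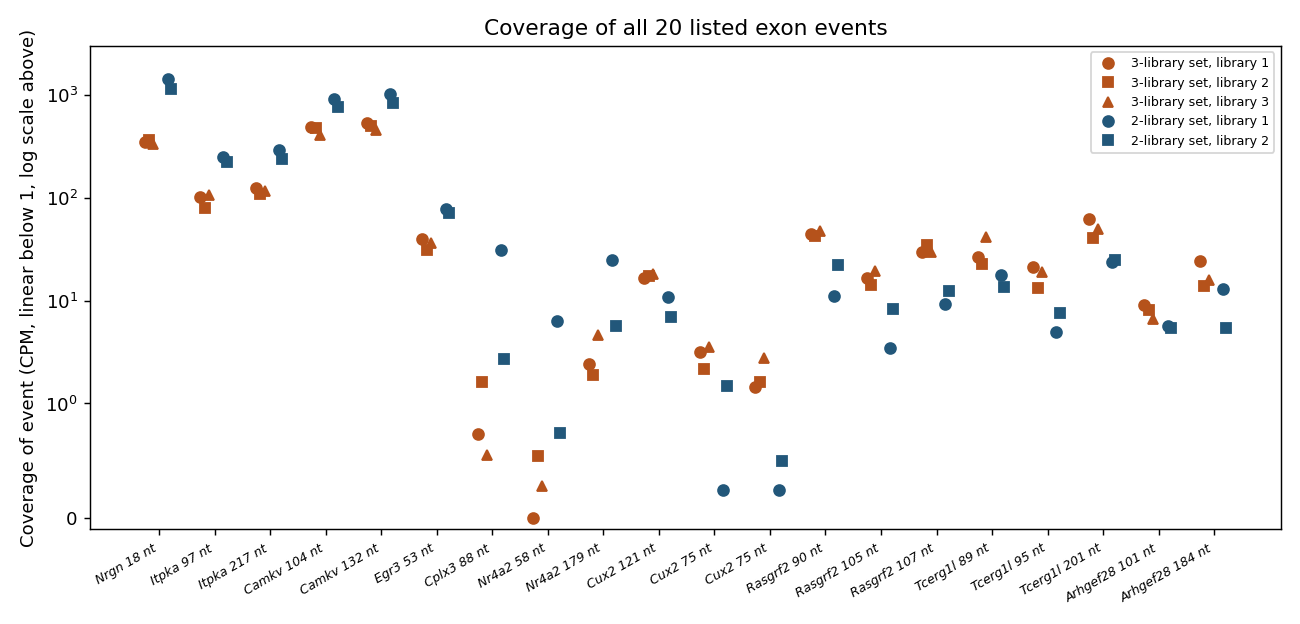
Coverage of the 20 listed exon events of the 10 genes in each library. The y axis is CPM, linear below 1 and logarithmic above, with 1 point per library of the 3-library set (orange) and the 2-library set (blue). The 9 events of Nrgn, Itpka, Camkv, Egr3, Cplx3 and Nr4a2 lie lower in the 3-library set and the 11 events of Cux2, Rasgrf2, Tcerg1l and Arhgef28 higher.

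Inclusion of these exons was near complete. Mean inclusion was above 0.9 in both sets for 15 of the 20 events. Of the 20, 6 had enough reads of both forms for the limma fit on inclusion, and 0 of them were called, against 3.69% of 7754 events, with 0 at an unadjusted p below 0.05. In contrast, the FDR in the authors' deposited table was below 0.05 for 1 of the 20, against 4.87% of all 27900 events. The Nrgn exon was included at 0.998, 1 and 0.996 in the 3-library set, against 0.999 and 1 in the 2-library set, so the lower Nrgn coverage came without a visible change in inclusion. Every event in the table has at least 1 skipping read in some library, so an event with none in one set must have one in the other.

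The event with the low FDR in the authors' deposited table was a 101-nucleotide exon of Arhgef28 (chromosome 13, 98709415 to 98709515). Skipping reads of this exon numbered 6 of 37, 4 of 30 and 2 of 24 in the 3-library set, against 0 of 23 and 0 of 22 in the 2-library set. Inclusion was 0.755, 0.795 and 0.868 in the 3-library set, against 1 in both libraries of the 2-library set. Skipping was thus seen in each library of one set and in none of the other, where 0 reads allow a share of up to 13.0% and 13.6%. The limma fit on inclusion included this exon and did not call it.

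A 95-nucleotide exon of Tcerg1l (chromosome 7, 145471685 to 145471779) was skipped in 1 library. Its inclusion was 1, 0.654 and 1 in the 3-library set, against 1 in both libraries of the 2-library set. The second library of the 3-library set had 12 skipping reads among 49, or 24.5%, and the limits at 0 reads were 3.41% and 4.35% in its partners and 15.0% and 9.68% in the 2-library set. The 201-nucleotide exon of Tcerg1l was included at 1, 0.925 and 0.938 in the 3-library set, against 1 in both libraries of the 2-library set.

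The 53-nucleotide exon of Egr3 (chromosome 14, 70477831 to 70477883) was mostly skipped. Its inclusion was 0.118, 0.163 and 0.163 in the 3-library set, against 0.199 and 0.164 in the 2-library set. The highest values of the 3-library set lay just below the lower one of the 2-library set, so the sets were close. Coordinates of this table are as deposited, and no source used here gives their build.

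**Figure D4:**
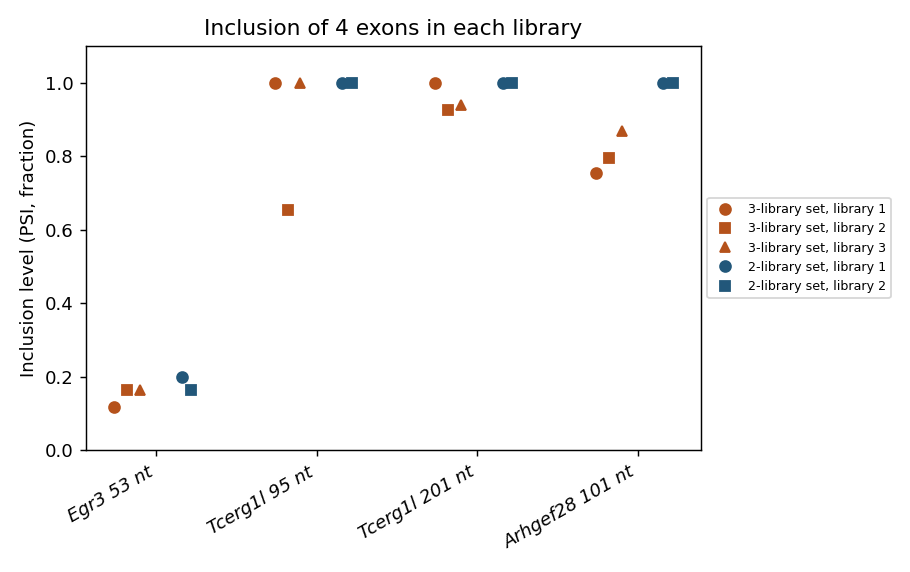
Inclusion level of 4 exons in each library. The y axis is the inclusion level as a fraction, with 1 point per library of the 3-library set (orange) and the 2-library set (blue). Egr3 stays below 0.2 in all 5 libraries, the 95-nucleotide Tcerg1l exon drops to 0.654 in 1 library, and the 101-nucleotide Arhgef28 exon is below 1 in each library of the 3-library set.

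In the dCas9-SET2 table, 2 of the 10 genes were listed, Cux2 and Egr3, and this table played no part in choosing them. A 121-nucleotide exon of Cux2 (chromosome 5, 121885838 to 121885958) had 67 reads in the second run set and 65 in the first, with 0 to 12 reads per run (median 3) in the second and 0 to 9 (median 4) in the first. As CPM of listed reads these were 65.2 (exact 95% interval 50.5 to 82.8) in the second set and 46.8 (36.1 to 59.6) in the first, so the intervals of counting error overlapped. Reads of Cux2 were 98.5% inclusion (exact 91.96 to 99.96%) in the second set and 100% (exact 94.5 to 100%) in the first. The authors' deposited table gives an inclusion difference of −0.0225 with an adjusted p of 0.574 for this exon.

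A 53-nucleotide exon of Egr3 (chromosome 14, 70078024 to 70078076) had 125 reads in the second run set and 160 in the first, with 3 to 16 reads per run (median 7) in the second and 2 to 22 (median 10) in the first. As CPM of listed reads Egr3 had 122 (exact 95% interval 101 to 145) in the second set and 115 (98.0 to 135) in the first. Reads of the exon were inclusion reads in 17.6% (exact 11.4 to 25.4%) in the second set and 21.3% (exact 15.2 to 28.4%) in the first. The authors' deposited table gives Egr3 an inclusion difference of 0.0062 with an adjusted p of 0.897. This score averages differences over run columns, and its sign is opposite to that of the shares of summed reads. Neither gene was called, against 4.96% of 5287 events with an adjusted p. Summed over libraries of the HSV table, inclusion reads of the 53-nucleotide Egr3 exon were 18.7% (exact 15.0 to 22.8%) in the 3-library set, against 23.2% (exact 19.9 to 26.8%) in the 2-library set. An Egr3 exon of this length was thus mainly skipped in both experiments. Its coordinates differ between them, and whether it is the same exon was not checked. Runs of 1 sample name are not independent, no test over runs was made, and the authors' deposited values were made with the repeated columns in the table.

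Other cortical genes were measured beside these 10, and the lists below were likewise chosen with earlier results known. Of 25 further genes known from cortical neurons, 8 were measured, with a median log2 difference of −0.71. Of these 8, 5 fell in the 3-library set, against 9.47% of all genes, 1 rose, against 13.2%, and 2 were not called. Without the second or the third library of the 3-library set, 4 fell. Camk4, a calcium and calmodulin dependent kinase, fell by 1.64 and Chn1, a Rac-inactivating protein, fell by 1.15, while Vsnl1, a neuronal calcium sensor, rose by 1.05 on the log2 scale (limma, adjusted p below 0.05). The other 17, among them Slc17a7, Tbr1, Neurod2 and Neurod6, were not measured here, so the defining genes of cortical excitatory neurons were not read. No cortical library was analysed here either, so the name cortex-enriched rests on background and was not checked against cortex.

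Genes of medium spiny neurons, the main neurons of the accumbens, were lower in the 3-library set, with a median log2 difference of −1.39. Of 16 measured genes, 15 fell, against 9.47% of all genes, 0 rose and 1 was not called. Pde10a, a striatal phosphodiesterase, fell by 1.80 and Rgs9, a brake on dopamine receptor signalling, fell by 1.79. Their summed coverage was 5113, 5242 and 4941 CPM in the 3-library set, against 15293 and 12515 CPM in the 2-library set, while that of the 10 genes was 1198, 1126 and 1082 CPM in the 3-library set, against 2919 and 2353 CPM in the 2-library set. The sums moved the same way, and Nrgn and Camkv make up most of the sum of the 10. In bulk tissue, fewer cells of a type and less RNA per cell cannot be told apart.

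Functional neighbours of the 10 genes are read against the shares over all genes, 13.2% higher and 9.47% lower. Of 19 measured genes of calmodulin signalling, 13 fell, 3 rose and 3 were not called, with a median of −0.58. Pcp4, a calmodulin-binding peptide, fell by 1.50, and Itpr1, the inositol trisphosphate receptor, fell by 1.43, while Camk2d rose by 1.20 and Camk1 by 0.66.

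Of 11 genes of complexins and the vesicle fusion machinery, 3 fell, 1 rose and 7 were not called, with a median of 0.10. The 4 called of 11 stand against 22.7% of all genes, and the 1 that rose against 13.2%. Unc13a, a vesicle priming factor, fell by 0.76 and Stx1a, a fusion protein of the plasma membrane, fell by 0.61, while Syt1, the calcium sensor of release, rose by 0.58. These counts depend on single libraries: 5 rose and 1 fell without library 1 of the 2-library set, and 1 fell without the first or the third library of the 3-library set. Of 5 measured immediate early genes, 3 fell, 0 rose and 2 were not called, with a median of −0.44. Homer1, a postsynaptic scaffold, fell by 1.20 and Per1, a clock gene, fell by 0.66, and 2 fell without the first or the third library of the 3-library set, or without library 1 of the 2-library set.

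**Figure D5:**
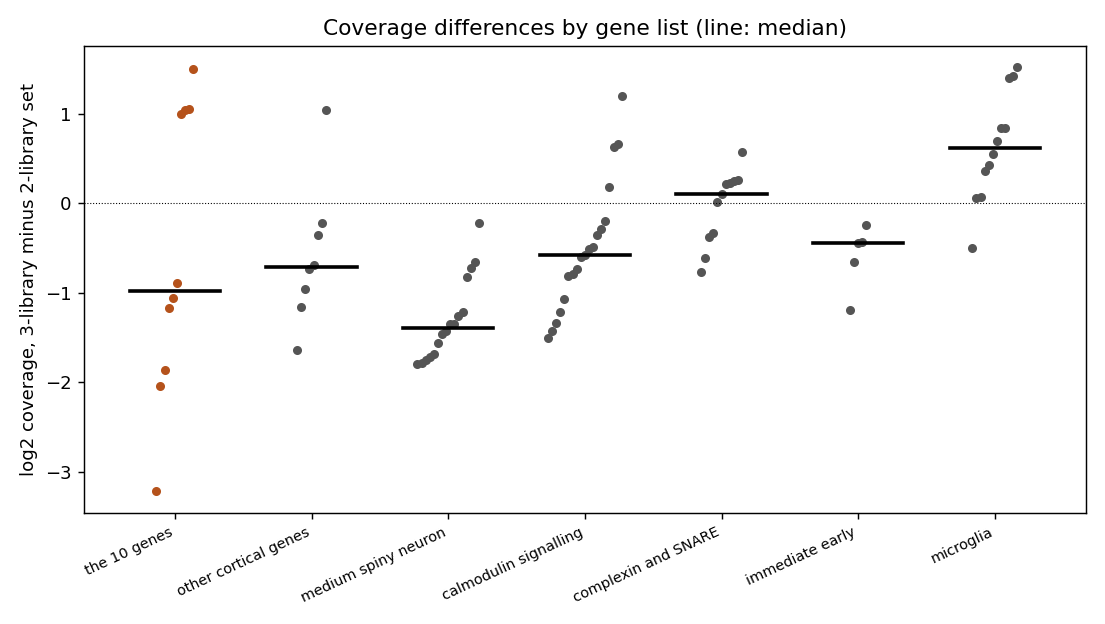
Log2 difference in coverage, 3-library minus 2-library set, of the measured genes of 7 lists, with 1 point per gene and a line at the median of each list. The medians of the 10 genes (−0.98), other cortical genes (−0.71) and medium spiny neuron genes (−1.39) lie below 0 and that of microglia genes (0.62) above. The 10 genes fall into a group of 4 above 0 and a group of 6 below.

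Markers of other cells were read against the same share of all genes higher in the 3-library set, 13.2%. Of 20 measured interferon-induced genes, 20 rose, and their summed coverage was 5139, 4697 and 5103 CPM in the 3-library set, against 767 and 976 CPM in the 2-library set. Of 12 microglia genes, 6 rose, 0 fell and 6 were not called, with sums of 3664, 3691 and 3619 CPM in the 3-library set, against 1478 and 3332 CPM in the 2-library set. The microglia count is not firm: 2 rose and 2 fell without library 1 of the 2-library set, 9 rose without its second, and 2 rose without the first or the third library of the 3-library set. Of 9 oligodendrocyte genes 7 rose, with 3 without the first or the third library of the 3-library set and 8 without its second. Of 7 interneuron genes 4 rose, and 3 without any 1 library of the 3-library set. Of 7 astrocyte genes 2 rose and 5 were not called, so no shift of this list is read. If library 2 of the 2-library set was left out, 3 of the astrocyte list rose and 1 fell.

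Genes of neighbouring tissue differed between the sets and between libraries of a set. Ttr, the transthyretin of the choroid plexus, had 11.9, 7.54 and 6.58 CPM in the 3-library set, against 405 and 9888 CPM in the 2-library set, so it was higher in both libraries of the 2-library set and highest in the library where Cplx3 and Nr4a2 were the lower of the pair. Gal, a neuropeptide of hypothalamus and septum, had 22.4, 164 and 17.5 CPM in the 3-library set, against 0.246 and 2.96 CPM in the 2-library set. Of vascular genes 0 were measured. No listed marker with a measured value summed to 0 over the libraries, and the part of these markers in the coverage of the 10 genes was not tested.

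By distance between centred log2 profiles over the 5 libraries, among 5514 genes with a mean of at least 100 reads per library, the 6 genes nearest to the mean of the 10 were Zfp511 (0.103), Kcnt1 (0.112), Spats2 (0.142), Slc25a42 (0.152), Rexo1 (0.159) and Fam214a (0.171). A mean over genes that differ in direction describes none of them well, so single genes were added after their values had been seen. Nrgn lay nearest to Ppp1r1b, the DARPP-32 of medium spiny neurons (0.127), Hpca (0.187) and Arpp21 (0.202). Rasgrf2 lay nearest to Ctss, a cathepsin of microglia (0.0994), Pld4 (0.194) and Wdr6 (0.227). Ctss had 1194, 1105 and 1210 CPM in the 3-library set, against 305 and 629 CPM in the 2-library set, with the same library low as in Rasgrf2. The 5514 genes leave out the 10 themselves and all genes below a mean of 100 reads, so genes of the depth of Cplx3 were not compared. Among the 5514, none lay near Cplx3, the closest being Cd4 at 2.51.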

How the data were processed

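The 2 deposited tables of exon skipping events in nucleus accumbens RNA were used. CUT&RUN, input and ChIP libraries were not analysed here. The submitters' processing notes name STAR 2.4.1d, Bowtie2 and the builds mm9 and mm10 without a role. The event caller and the test are not given in the sources used here. Per the file headers, cells hold whole-number inclusion and skipping read counts joined by commas, with inclusion levels, which were recomputed within 0.001 for 100% of values. The p-value and FDR (HSV) and the adjusted p-value (dCas9-SET2) are those the authors deposited, as is each difference score. The HSV score runs 2-library minus 3-library set and is printed nowhere here. The dCas9-SET2 score, deposited by the authors as dPSI, was rebuilt from the runs for 91.3% of events within 0.0001. The rebuild took second minus first set column by column, with a missing inclusion level taken as no inclusion. Differences within 1 SD of their mean were then averaged. In all, 37 columns carry no sample name (5 HSV, 32 dCas9-SET2) and were compared as the sets each table defines. Of the 16 columns of each dCas9-SET2 set, 1 repeated another in every event and was left out.

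Listed reads per HSV library numbered 7428974 to 8341849 in the 3-library set, against 8366275 and 8638249 in the 2-library set. Runs held 56946 to 84870 reads in the second and 79799 to 106251 in the first dCas9-SET2 set. A planned condition applied: counts joined in cells were not taken to a count model. Coverage of each gene's deepest event (mean of at least 20 reads per library) was scaled by TMM factors (trims 0.3 and 0.05), 0.5 was added, and log2 values went into limma 3.58.1 (R 4.3.3) with a mean-variance trend, a two-sided test and Benjamini-Hochberg adjustment over all genes at 0.05. The added 0.5 understates changes of genes with low coverage. Inclusion was fitted with limma on the logit scale, with precision weights, for events with a mean of 20 reads and 10 of the rarer form. Both fits were tried on simulated data, with equal spread in every library for coverage and counting error only for inclusion. That check does not cover the uneven spread between libraries seen here. Ratios and shares have exact 95% intervals (scipy 1.17.1). A share of 0 reads is limited by 3 reads of the total.

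All 10 genes are named. For likeness the 6 nearest genes were named, and for each list up to 2 called genes in each direction with the largest differences. The 10 genes and all lists were chosen with earlier results of these data known. Alternatives were another scaling, added count, filter or measure of coverage, and leaving out each library.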

Additional observations from a re-analysis of the deposited data

How the results depend on the processing

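Of 90 recomputed differences of the 10 genes, 0 changed sign. Settings were other scalings, an added count of 2, the sum of a gene's events, and each library left out. Under each, 4 genes were higher in the 3-library set, while calls of these genes changed with the library left out, as given above. The sets overlapped in none of the 10 genes, so leaving out a library could not reverse a sign at unchanged scaling. The same contrast also chose these genes, so nothing is read from their steady sign. Of the 90 differences, 76 moved by less than the pooled spread within the sets and 14 by more, all on leaving out a library of the 2-library set. At unchanged scaling, leaving out 1 library of the 3-library set cannot move a difference by more than this spread. The split of 76 and 14 therefore does not show that the values depend less on the 3-library set. Without its first and without its second library, the log2 differences were −1.70 and −2.02 for Nrgn, −1.04 and −1.30 for Itpka and 1.32 and 0.68 for Cux2, and those of the other 4 genes stand with their values above. The number of genes called in coverage, 1858, was 1860 to 2165 under other scalings, measures and filters and 1334 to 2088 without 1 library. Calls of exon inclusion numbered 286 in limma with weights and 0 without weights, where 790 events had an unadjusted p below 0.05, and 974 by the FDR of the authors' deposited table on the same events. They numbered 150 to 236 without 1 library, and 150 without library 1 of the 2-library set. With a library of the 2-library set left out, its lone partner is taken to have the spread of the 3-library set. In the authors' deposited table of dCas9-SET2, 262 events had an adjusted p below 0.05 and 30 below 0.01. The cause of these differences in counts was not tested. No paired analysis was possible because the columns carry no replicate numbers. Depth limits Cplx3 and Nr4a2, with 2 to 17 reads per library in the 3-library set, and the dCas9-SET2 values of Cux2, with 0 to 12 reads per run. With the repeated run column counted again, Cux2 had 73 reads in the second run set and 72 in the first, and Egr3 138 in the second and 173 in the first.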
